A study of Mus musculus with 10 samples.

Results

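The miR-148/miR-152 and miR-29 families of microRNAs (miRNAs), which are known for acting on the enzymes that methylate DNA, were measured in mature sperm of mice fed a control or a high-fat diet. The 7 hairpins mmu-mir-148a, mmu-mir-148b, mmu-mir-152, mmu-mir-29a, mmu-mir-29b-1, mmu-mir-29b-2 and mmu-mir-29c were taken by name from the 1136 miRNA hairpins listed for the 10 samples. The choice was by name and not by level, but earlier results of these data were known when it was made. A hairpin is the folded precursor from which the mature miRNA is cut, and its value here pools the reads of both arms. The sperm came from the tail of the epididymis and the vas deferens of C57BL/6J fathers (F0). From 4 weeks of age these males ate for 10 weeks either a control diet with 10% of kcal as fat (CD-F0, n = 5) or a diet with 42% (HFD-F0, n = 5), and the diet was the difference between the groups that the labels give. Whether each sample was 1 mouse is not stated in the sources used here, so the p-values measure the spread between samples, which may be technical.

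Mature miRNAs guide the silencing complex to messenger RNAs, mostly by pairing of the seed, which is bases 2 to 8 of the miRNA, with a site in the 3′UTR. Dnmt1 keeps up DNA methylation when DNA is copied, Dnmt3a and Dnmt3b add it anew, Dnmt3l helps them in germ cells, and the Tet enzymes and Tdg take part in its removal. miR-29 is known for lowering Dnmt3a and Dnmt3b and is also reported to act on the Tet enzymes and Tdg, whereas miR-148a and miR-152 are known for lowering Dnmt1. miR-148 is also reported to act on human DNMT3B through its coding sequence, which was not searched here. Sperm DNA is methylated in the testis before the sperm reaches the epididymis, and sperm RNA enters the egg.

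The mature 3p arms are shown here because they carry the seeds that set the families apart and the few bases by which members of 1 family differ. All 7 hairpins matched RefSeq (GRCm38.p6) by name. Sequences run 5′ to 3′, with the seed in capitals.

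miR-148a-3p: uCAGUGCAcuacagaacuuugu
miR-148b-3p: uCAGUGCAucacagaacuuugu
miR-152-3p: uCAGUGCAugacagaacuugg
miR-29a-3p: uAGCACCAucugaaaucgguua
miR-29c-3p: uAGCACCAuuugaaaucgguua
miR-29b-3p: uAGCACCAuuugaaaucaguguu

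Each seed was held by exactly 3 of the 1679 mature miRNA names in the RefSeq table, which are the members of the family. Counted from 1 at the 5′ end, miR-29a differed from miR-29c by C10U alone, and miR-29c from miR-29b by G18A, U21G and A22U over the 22 bases they share. miR-148a differed from miR-148b by C9U and U10C, and miR-148b from miR-152 by C10G and U20G over 21 bases. The 2 copies of mir-29b give the same 3p arm, and the copies can be told apart by their 5p arms only, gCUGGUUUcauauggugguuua for miR-29b-1-5p and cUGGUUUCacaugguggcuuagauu for miR-29b-2-5p. Since the alignment allowed 1 mismatch, a read can fit more than 1 of these hairpins, and the authors split such reads. The members of a family are therefore not independent measurements.

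The miR-29 hairpins lie in 2 pairs. On the minus strand of chromosome 6, mir-29a (chr6:31062660-31062747) and mir-29b-1 (chr6:31063023-31063093) are 275 bases apart, and on the plus strand of chromosome 1, mir-29b-2 (chr1:195037040-195037120) and mir-29c (chr1:195037547-195037634) are 426 bases apart. The miR-148/miR-152 hairpins lie apart from each other, mir-148a on the minus strand of chromosome 6 (chr6:51269812-51269910), mir-148b on the plus strand of chromosome 15 (chr15:103285125-103285221) and mir-152 on the plus strand of chromosome 11 (chr11:96850393-96850465).

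The seed matches in the 3′UTRs of the methylation genes are given as a background to the miRNA levels, since no messenger RNA was measured. The letters searched were the reverse complements of the seeds, TGCACTG for miR-148/miR-152 and TGGTGCT for miR-29, on the sense strand of the longest annotated 3′UTR of each gene (GENCODE M21, GRCm38). Of all 21020 3′UTRs, 12.7% held the first and 13.1% the second. Each site is printed in DNA letters with the match in capitals, 1 base after it and the bases before it.

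Dnmt1, miR-148/miR-152: acccagagccccacgTGCACTGa
Dnmt3b, miR-29: tagagtagcccggcaTGGTGCTc
Dnmt3a, miR-29, first of 5: atcccgacttcataaTGGTGCTt

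The Dnmt1 match starts 23 bases into a 3′UTR of 312 bases, in exon 39 of 39 (chr9:20907491-20907513, minus strand), and of the 1698 3′UTRs of similar length 3.06% held the same letters. The Dnmt3b match starts at base 228 of 1331, in exon 23 of 23 (chr2:153686612-153686634, plus strand), and 11.9% of 3′UTRs of similar length held it. The Dnmt3a 3′UTR, 6696 bases long, held 5 miR-29 matches in exon 23 of 23, the first at chr12:3908557-3908579 on the plus strand. Of 3′UTRs as long as this, 45.95% held at least 1. Tet1, Tet2, Tet3 and Tdg held 7, 5, 8 and 3 miR-29 matches. Of 3′UTRs of similar length to these, 51.3%, 26.3%, 42.3% and 18.7% held at least 1. Tdg also held 2 miR-148/miR-152 matches that overlap by 2 bases, and 19.0% of 3′UTRs of similar length held at least 1. Dnmt1 and Dnmt3l had no miR-29 match, and Dnmt3a, Dnmt3b, Dnmt3l, Tet1, Tet2 and Tet3 had no miR-148/miR-152 match in this window. A match is a description of letters, not a measured site.

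**Figure D1:**
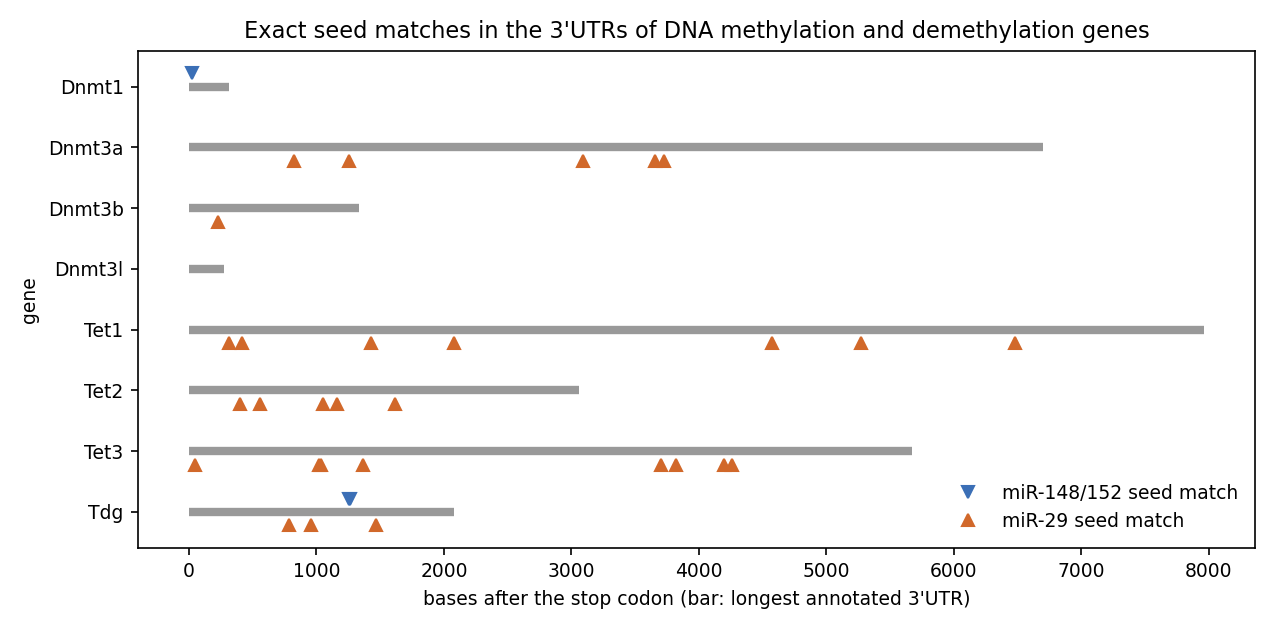
Seed matches in the longest annotated 3′UTR of 8 genes, with the distance from the stop codon in bases on the horizontal axis and 1 grey bar per gene. Blue triangles mark miR-148/miR-152 matches, of which Dnmt1 has 1 near the stop codon and Tdg 2 that overlap, and orange triangles mark miR-29 matches, of which Dnmt3a has 5, Dnmt3b 1 and Tet3 8.

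The 10 libraries held 29558751 to 32178088 clean reads, and miRNA hairpins took 4283714 to 7532696 of them, which is 16.9% ± 1.02 (SD, n = 5) of the clean reads under the control diet and 18.7% ± 3.23 (SD, n = 5) under the high-fat diet. HFD-F0 1 had the highest share, 23.5%, and HFD-F0 5 the lowest, 14.5%. The sperm label was checked against 5 testis and sperm miRNAs of the miR-34 and miR-449 families, whose summed level was 10478 to 12648 RPM in CD-F0 and 7275 to 15064 RPM in HFD-F0 samples. RPM is the number of reads per 1000000 clean reads. Markers of other cells were also present, with 6 epithelial miRNAs (the miR-200 family and miR-205) at 3969 to 6756 and 5520 to 9463 RPM, 6 muscle miRNAs at 21352 to 29447 and 15876 to 36525 RPM, 7 blood miRNAs at 3686 to 5534 and 3249 to 6033 RPM, and the liver miRNA mir-122 at 3.45 to 100.9 and 4.00 to 57.1 RPM. Most of the muscle sum was mir-143, which is also in the list of methyltransferase miRNAs below. It was at 25077 ± 3255 RPM in CD-F0 and 27437 ± 7690 RPM in HFD-F0 samples (SD, n = 5 each). The mean muscle sums were 26111 and 29202 RPM. None of these summed levels was at 0, and no sum kept the groups apart. Of the single markers, the blood miRNA mir-223 did, at 341.9 to 377.2 RPM in CD-F0 and 448.8 to 584.3 RPM in HFD-F0 samples. The other blood miRNAs overlapped, among them mir-146a (1920 to 3097 and 1787 to 3249 RPM) and mir-451a (781.5 to 1843 and 469.4 to 1891 RPM). The groups were apart in 3.93% of all small RNA features tested. The part of such cells in the levels below was not tested. Fewer cells of a type and less RNA per cell cannot be told apart in such bulk samples.

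Of the 7 hairpins, mir-29a was at the highest level, followed by mir-29c, mir-148a, the 2 mir-29b copies, mir-152 and mir-148b. Over the 10 samples mir-29a was at 641 ± 151 RPM (SD, n = 10) and mir-29c at 546 ± 124 RPM (SD, n = 10), which placed them 63rd and 69th of the 1136 hairpins. mir-148a, at 135 ± 54.6 RPM (SD, n = 10), was 118th, mir-29b-1 and mir-29b-2 were 142nd and 143rd, mir-152 was 214th and mir-148b 270th. The values are reads per hairpin, with no correction for length, and the 3p arms printed above are 21 to 23 bases long. How evenly the library preparation takes up different miRNAs was not tested.

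The order was nearly the same in every sample. Each hairpin was above the next in 10 of 10 samples, except mir-152, at 24.8 ± 11.3 RPM (SD, n = 10), which was above mir-148b, at 13.5 ± 3.65 RPM (SD, n = 10), in 9. The level of mir-29a lay within 1 SD of that of mir-29c, and the mir-29b copies, at 77.7 ± 18.8 and 76.5 ± 19.0 RPM (SD, n = 10), differed by 11 to 57 reads in a sample. The counting error was smaller than the SD over the samples. In the sample where a hairpin was lowest, the half-width of its 95% Wilson interval was 1.59% of the value for mir-29a and 12.7% for mir-148b, which had 239 reads there. For mir-29b-1 and mir-29b-2, both lowest in CD-F0 3, the half-width was 4.88% and 4.96%. There mir-29b-2 had 0.967 reads for each read of mir-29b-1, so the gap between the copies was within the counting error. Such intervals cover counting error only. All reads of the 7 hairpins matched the genome.

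**Figure D2:**
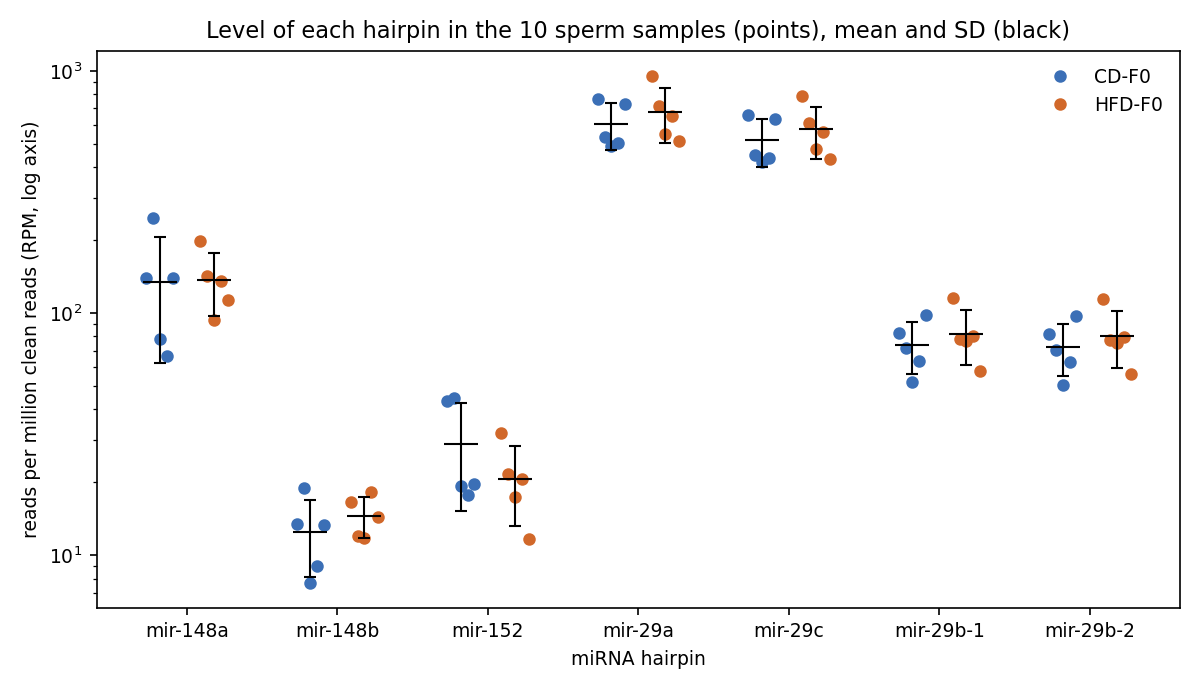
Level of each hairpin in RPM on a log axis, with 1 point per sample in blue for CD-F0 and orange for HFD-F0 and the mean and SD of 5 samples in black. The groups overlap for each of the 7 hairpins, mir-29a and mir-29c are above the others in all samples, and mir-152 has its 2 highest samples in the CD-F0 group.

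None of the 7 hairpins passed the thresholds for up- or down-regulation in HFD-F0 sperm. The study called a small RNA at an unadjusted p of 0.05 and an absolute log2 fold change of 1. At both of these thresholds 0 of 7 were called, where 3.69% of the 814 small RNA features tested were (30 features, edgeR's quasi-likelihood test). By p alone 0 of 7 were called against 10.2% of all features, and by a Benjamini-Hochberg adjusted p under 0.05 0 of 7 against 0.123%. In 0 of 7 did the RPM of the groups fail to overlap, against 3.93% of all features. All 7 had passed the filter on low counts. The DESeq2 Wald test also called 0 of 7 by its unadjusted p, beside 98 of all 814 features. The exact permutation test called 0 of 7 by its unadjusted p. Its share over all features is not given here, so that count has no comparison. The median log2 fold change of the members was 0.03, with 5 above and 2 below 0, beside −0.01 over all features and −0.05 over the 529 miRNA features tested. This median ran from −0.094 to 0.12 when single samples were left out, with a change of sign in 5 of the 10 cases, and was 0.15 with clean reads as library size. For 6 of the 7 the 95% interval of the log2 fold change stayed inside the fold threshold in both directions, and mir-152 was the exception.

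**Figure D3:**
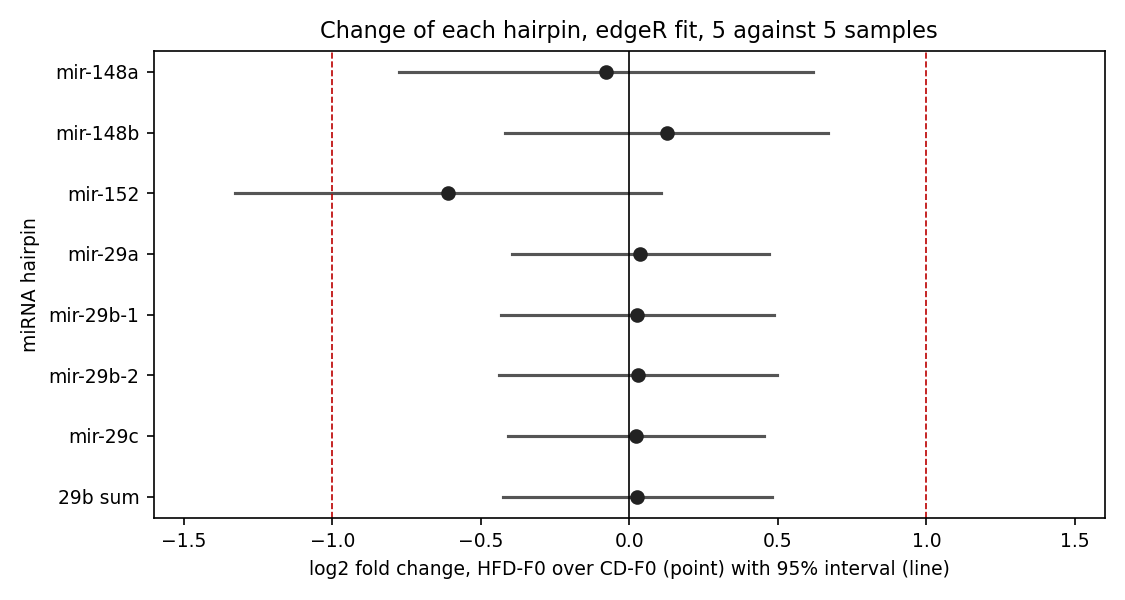
Log2 fold change of HFD-F0 over CD-F0 for each hairpin and for the 2 mir-29b copies as a sum, with the 95% interval of the edgeR fit as a line and the fold threshold as dashed lines. All intervals include 0, the miR-29 members lie between 0.02 and 0.04, and mir-152 lies at −0.61 with an interval that reaches −1.33.

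mir-152, whose mature form shares the miR-148 seed and is known for acting on Dnmt1, had the log2 fold change farthest from 0 among the members. Its levels were 43.2, 44.5, 19.3, 17.7 and 19.6 RPM in CD-F0 1 to 5 and 32.1, 21.7, 17.4, 20.7 and 11.6 RPM in HFD-F0 1 to 5. CD-F0 1 and CD-F0 2 were higher than every other sample, the other 3 CD-F0 samples lay among the HFD-F0 samples, and 2 HFD-F0 samples were below all CD-F0 samples. The mean was 28.9 ± 13.7 RPM in CD-F0 sperm (SD, n = 5) against 20.7 ± 7.48 RPM in HFD-F0 sperm (SD, n = 5). The log2 fold change was −0.61 (standard error 0.33, 95% interval −1.33 to 0.11, adjusted p = 0.532 in edgeR), with an unadjusted p of 0.0879 in edgeR, and the two-sided exact permutation test of the RPM gave p = 0.294. Of 5 against 5 samples, that test can give no p below 0.00794. The unadjusted threshold was passed in edgeR without CD-F0 4 (log2 fold change −0.74, adjusted p = 0.609) and without HFD-F0 1 (log2 fold change −0.77, adjusted p = 0.331). It was also passed with the replicate number as a block (log2 fold change −0.53, adjusted p = 0.475 in edgeR). Without CD-F0 1 or CD-F0 2, the samples with the most mir-152, the log2 fold change was −0.35 (adjusted p = 0.744 in edgeR) or −0.46 (adjusted p = 0.796 in edgeR).

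mir-148a gave most of the reads of its family. It was at 139.8, 246.7, 78.0, 66.3 and 139.1 RPM in CD-F0 1 to 5 and at 198.8, 142.0, 93.7, 135.3 and 112.6 RPM in HFD-F0 1 to 5. The highest and the 2 lowest samples were all CD-F0, so that the HFD-F0 samples lay inside the CD-F0 range. The means were 134 ± 71.6 and 136.5 ± 39.8 RPM (SD, n = 5 each), and the log2 fold change was −0.08 (standard error 0.32, 95% interval −0.77 to 0.62, adjusted p = 0.967 in edgeR). Its sign differs from that of the RPM difference, and it turned with clean reads as library size (0.03), so no direction is given.

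mir-148b, whose mature form differs from miR-148a at 2 bases, was at 13.5, 18.9, 7.71, 9.05 and 13.3 RPM in CD-F0 1 to 5 and at 16.5, 12.0, 11.8, 18.2 and 14.3 RPM in HFD-F0 1 to 5. Again both the highest and the lowest sample were CD-F0. Its log2 fold change was 0.13 (standard error 0.25, 95% interval −0.42 to 0.67, adjusted p = 0.914 in edgeR). Summed, the 3 hairpins of the family were at 175 ± 87.1 RPM (SD, n = 5) in CD-F0 and 172 ± 48.1 RPM (SD, n = 5) in HFD-F0 sperm. The CD-F0 sums ran from 93.1 RPM in CD-F0 4 to 310.0 RPM in CD-F0 2, a range that held all 5 HFD-F0 sums, 122.9 to 247.4 RPM. The liver miRNA mir-122 was at 4.63, 8.71, 20.2, 100.9 and 3.45 RPM in CD-F0 1 to 5. In HFD-F0 1 to 5 it was at 4.00, 6.87, 12.1, 8.26 and 57.1 RPM, and its part in the family sums was not tested.

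mir-29a, from the chromosome 6 pair, was at 766.7, 531.8, 489.1, 504.5 and 733.2 RPM in CD-F0 1 to 5. In HFD-F0 1 to 5 it was at 952.2, 718.1, 548.7, 649.4 and 514.1 RPM. HFD-F0 1 was above every CD-F0 sample and the other 4 HFD-F0 samples lay inside the CD-F0 range. The means were 605 ± 134 and 676.5 ± 174 RPM (SD, n = 5 each). The log2 fold change was 0.04 (standard error 0.20, 95% interval −0.39 to 0.47, adjusted p = 0.991 in edgeR), with p = 0.524 in the exact permutation test. The difference of the means was 71.4 RPM, and 2.51 RPM without HFD-F0 1.

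mir-29c, from the chromosome 1 pair, showed nearly the same order of samples at a lower level, with 418.6 to 657.0 RPM in CD-F0 and 432.3 to 790.6 RPM in HFD-F0 sperm, and with HFD-F0 1 above every CD-F0 sample. Its log2 fold change was 0.02 (standard error 0.20, 95% interval −0.41 to 0.45, adjusted p = 0.991 in edgeR), and the difference of its means fell from 55.2 to 0.870 RPM without HFD-F0 1. The 2 mir-29b copies, taken as a sum because their 3p arms are the same, were at 164.7, 142.6, 102.5, 125.9 and 195.0 RPM in CD-F0 1 to 5 and at 230.4, 155.6, 151.7, 160.0 and 113.9 RPM in HFD-F0 1 to 5. Here too HFD-F0 1 was the highest sample. The sum had means of 146 ± 35.6 and 162 ± 42.2 RPM (SD, n = 5 each) and a log2 fold change of 0.03 (standard error 0.21, 95% interval −0.43 to 0.48, adjusted p = 0.991 in edgeR).

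All miR-29 hairpins together were at 1269 ± 281 RPM (SD, n = 5) in CD-F0 and 1412 ± 354 RPM (SD, n = 5) in HFD-F0 sperm. Relative to all miRNA reads of the sample, the miR-29 sum took 0.752% ± 0.166 (SD, n = 5) in CD-F0 and 0.750% ± 0.0690 (SD, n = 5) in HFD-F0 sperm. HFD-F0 1, the sample with the highest miR-29 sum at 1973 RPM, also had the highest share of miRNA reads. Its summed epithelial (9463 RPM), sperm (15064 RPM) and muscle markers (36525 RPM) were each the highest of all samples. Its summed blood markers, 5590 RPM, and its mir-122, 4.00 RPM, were not. On the scale of miRNA reads the miR-29 share of HFD-F0 1 was 0.838%, inside the CD-F0 range of 0.554% to 0.926%. The part of the miRNA share and of any of these cell types in the miR-29 levels was not tested.

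Within the miR-29 family the make-up hardly varied. mir-29c had 0.830 to 0.869 reads for each read of mir-29a in the 10 samples, with a mean of 0.856 ± 0.00792 (SD, n = 5) in CD-F0 and 0.850 ± 0.0161 (SD, n = 5) in HFD-F0 sperm. The mir-29b sum was 11.5% ± 1.19 (SD, n = 5) of the family in CD-F0 and 11.5% ± 0.940 (SD, n = 5) in HFD-F0 sperm, and mir-29b-2 had 0.967 to 0.994 reads for each read of mir-29b-1. The members with this steady ratio lie on different chromosomes, and their 3p arms are the same or differ at 1 base. How much of the ratio comes from splitting shared reads was not tested.

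The miR-148/miR-152 family varied more in its make-up. mir-148a took 75.4% ± 4.59 (SD, n = 5) of the family reads in CD-F0 and 79.3% ± 2.20 (SD, n = 5) in HFD-F0 sperm, and mir-148b 7.54% ± 1.36 and 8.78% ± 1.89 (SD, n = 5 each). For mir-152 the share was 17.0% ± 4.17 (SD, n = 5) in CD-F0, from 11.4% to 22.01%, and 11.9% ± 2.17 (SD, n = 5) in HFD-F0, from 8.38% to 14.2%. These ranges overlap, and the shares are given without a test because they are built from several members. The ratio of the miR-29 sum to the miR-148/miR-152 sum ran from 3.62 in CD-F0 2 to 11.4 in CD-F0 4, and from 7.65 to 9.58 in the HFD-F0 samples.

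**Figure D4:**
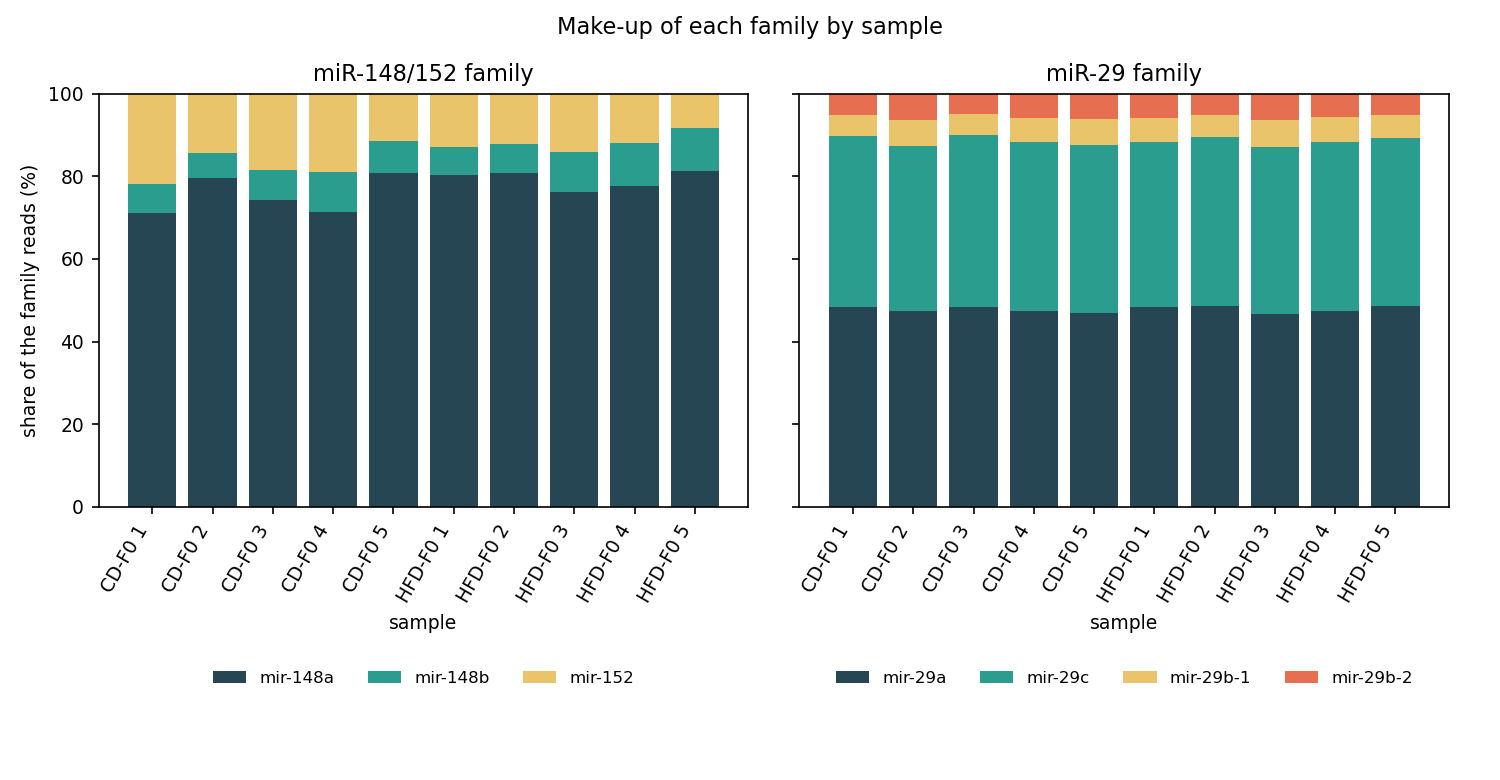
Share of each hairpin in the reads of its family, in percent, with 1 bar per sample for the miR-148/miR-152 family at the left and the miR-29 family at the right. In miR-29 the mir-29a share stays between 46.6% and 48.5%, whereas in miR-148/miR-152 the mir-152 share runs from 8.38% in HFD-F0 5 to 22.01% in CD-F0 1.

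The hairpins whose log2(RPM + 1) ran most like the family sums over the 10 samples were looked up among 522 other miRNA features. For miR-148/miR-152 these were mir-106b (Pearson's r = 0.912, Spearman's rho = 0.758), mir-339 (0.890 and 0.939) and mir-186 (0.865 and 0.915). For miR-29 they were mir-1247 (0.929 and 0.842), mir-200a (0.922 and 0.903) and mir-183 (0.904 and 0.915), of which mir-200a is 1 of the epithelial markers above. These are the highest of many values, the points share their library and depth, and they are given as a description. The mean levels of mir-1247, mir-200a and mir-183 were 2.25, 1617.5 and 196.7 RPM, so that of mir-1247 was low.

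Other miRNAs known for acting on the methylation enzymes were counted in the same fit, in which 10.2% of all features passed the p threshold and 3.69% passed both, so that a count of 0 or 1 in lists this short is close to the share over all features. Of 10 hairpins reported to act on DNA methyltransferases (mir-101a, mir-101b, mir-101c, mir-126a, mir-140, mir-143, mir-185, mir-342 and the 2 mir-194 copies), 0 rose and 0 fell at the p threshold in edgeR, with a median log2 fold change of −0.05. Among the 4 reported to act on the Tet enzymes (mir-22, the 2 mir-26a copies and mir-26b), 0 rose and 0 fell, with a median of −0.11. Of the 8 hairpins of the miR-290 to miR-295 cluster, which acts on the methyltransferases through Rbl2 in embryonic stem cells, 7 were listed and 6 were tested, 0 in either direction passed, and their median was −0.04. The cluster was at low levels, with a sum of 16.7 to 22.1 RPM in the 10 samples. By comparison, 1 of 6 muscle markers, mir-145a, rose at both thresholds with a log2 fold change of 1.09 (adjusted p = 0.293 in edgeR). The median of the muscle markers was −0.02, with 2 of 6 above 0. Among the blood markers 1 of 7, mir-223, rose at the p threshold with 0.44 (adjusted p = 0.225 in edgeR). The median of the blood markers was 0.21, with 5 of 7 above 0, mir-451a at −0.29 and mir-146a at −0.07. Of the sperm, epithelial and liver markers 0 of 5, 0 of 6 and 0 of 1 passed in either direction. The medians of the sperm and epithelial markers were −0.02 and 0.29, and mir-122 was at −0.71.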

How the data were processed

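Small RNA of 10 mature sperm samples (5 CD-F0, 5 HFD-F0) was measured by sequencing. Clean reads were aligned by the authors using SPORTS, a program built on Bowtie, with 1 mismatch allowed, to mm10 per the submitters' processing notes. The deposited values are estimated counts for each RNA class and sub-class, without normalization. Versions, the miRNA database release and whether reads were collapsed by molecular identifier are not given in the sources used here. A read that fits several hairpins is split, and 37.3% to 39.8% of the sub-class values of a sample were not whole.

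Genome-matched and unmatched reads were added, which gave 1470 features without overlap, and the sums were rounded to whole numbers. The fit used edgeR 4.0.16 (R 4.3.3) with filterByExpr, TMM normalization, no covariate and the quasi-likelihood test, and p-values were adjusted by Benjamini-Hochberg over the 814 features kept. The standard error is the size of the log2 fold change divided by the square root of F. RPM differences were tested by exact permutation over all 252 assignments, two-sided, and intervals of levels are 95% Wilson intervals. Other steps ran in Python 3.11.15 with numpy 2.4.6, scipy 1.17.1 and pandas 2.3.3, and the fit was tested on simulated data. Sequences came from RefSeq (GRCm38.p6) and GENCODE M21 (GRCm38), the assembly that UCSC names mm10. The text names all members, the family sums and the 3 hairpins most like each sum. The alternatives were DESeq2 1.42.0 (size factors, Wald test), clean reads as library size, no filter, at least 10 reads in every sample, miRNA features only, genome-matched reads only, the mir-29b copies as 1 feature, other denominators, log2(RPM + 1), leaving out each sample, and a replicate block. The smallest chi-square per degree of freedom between any of the 45 pairs of libraries was 508, so no library was taken as a repeat count of another. That check cannot tell separate libraries of the same sperm from libraries of different sperm. The members and gene lists were chosen with earlier results of these data known.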

Additional observations from a re-analysis of the deposited data

How the results depend on the processing

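Of 256 alternative values of the log2 fold changes and RPM differences, 215 kept their sign and their side of the threshold, 38 changed sign none of them past the threshold, and in 3 mir-152 passed the p threshold. The median of the members, which has no test, changed sign in 5 of 18 alternatives, each with 1 sample left out. No alternative called a member at both thresholds. With miRNA reads as the denominator the HFD-F0 minus CD-F0 difference, in reads per 1000000 miRNA reads, was −65.4 for mir-148a, −19.8 for mir-29c, −3.76 for mir-29b-1, −3.79 for mir-29b-2 and −7.55 for the mir-29b sum, all opposite in sign to the RPM difference. The log2 fold change of mir-148a turned to 0.027 with clean reads as library size, where the median of all features was 0.09. In the fit with the replicate number as a block that of mir-148a was 0.040 and that of mir-152 −0.53 (adjusted p = 0.475 in edgeR). In that fit 1 of 7 members passed the p threshold, beside 82 of all 814 features. The labels do not say whether samples with the same number belong together. Deviations of the samples with the same number correlated at 0.336, −0.0873, 0.246, −0.191 and −0.137. Of 10 samples, 4 correlated best with their own number, and these values do not settle whether the numbers pair the samples.

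When single samples were left out, the log2 fold change ran from −0.24 to 0.20 for mir-148a, −0.017 to 0.26 for mir-148b, −0.77 to −0.35 for mir-152, −0.083 to 0.19 for mir-29a, −0.094 to 0.15 for mir-29b-1, −0.10 to 0.15 for mir-29b-2, −0.087 to 0.17 for mir-29c and −0.089 to 0.15 for the mir-29b sum. The median of the members ran from −0.094 to 0.12. The RPM difference ran from −14.4 to 30.7 for mir-148a, 0.903 to 3.69 for mir-148b, −11.0 to −4.28 for mir-152, 2.51 to 112.0 for mir-29a, 0.870 to 90.5 for mir-29c, −0.362 to 14.2 for mir-29b-1, −0.462 to 14.2 for mir-29b-2 and −0.824 to 28.4 for the mir-29b sum. The number of members past the p threshold was 0 to 1 of 7, the 1 being mir-152 without CD-F0 4 or without HFD-F0 1. Over all features 67 of 827 passed it without CD-F0 4 and 122 of 826 without HFD-F0 1. A count of 1 in 7 is close to these shares. The cause of these changes was not tested.

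Over all features, 30 passed both thresholds, against 93 with no filter, 19 with at least 10 reads in every sample, 12 among miRNA features only and 50 without CD-F0 5. An adjusted p under 0.05 was reached by 1 feature, by 13 with the DESeq2 Wald test, by 5 with clean reads as library size, by 2 without CD-F0 2, CD-F0 5 or HFD-F0 4, and by 0 of the miRNA features alone and without CD-F0 1, CD-F0 4 or HFD-F0 5. In the sample where a member was lowest, counting error was 1.59% to 12.7% of its level (half-width of the 95% Wilson interval).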
